A study of Mus musculus with 2 samples.

Results

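Mir191 and Mir425 are a pair of microRNA genes on mouse chromosome 9 beside Dalrd3. They were chosen by symbol, as the 2 of 2202 listed microRNA genes whose Ensembl identifiers carry these names in GENCODE M21. The tissue was hippocampus from male mice of the hybrid strain B6CASTF1/J, 2 months old, whose parents are C57BL/6J and CAST/EiJ, and the labels name no treatment. They form 1 group of 2 biological replicates, and the labels give separate biosamples under a single donor entry, so the spread given here may be technical. No condition was compared, and the comparisons are between genes, between count columns and between the replicates.

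MicroRNAs are cut from hairpin precursors by Drosha and Dicer, and 1 arm or both arms of the hairpin are loaded into Argonaute, where the seed (bases 2 to 8) pairs with target transcripts. The miR-191 and miR-425 hairpins lie close together on the same strand and are commonly described as a cluster made from the transcript of the gene Dalrd3, which encodes a protein with an anticodon-binding domain. miR-191 is present in many tissues and is often used as a normaliser in quantitative PCR. In rodent hippocampal neurons it has been linked to dendritic spine remodelling during synaptic depression. Human miR-425 is known to target the transcript of the atrial natriuretic peptide gene NPPA.

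The mature sequences from RefSeq (GRCm38.p6) are shown because the seed defines what each product can pair with. The seed is in capitals.

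miR-191-5p: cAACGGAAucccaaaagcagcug

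miR-191-3p: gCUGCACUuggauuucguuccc

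miR-425-5p: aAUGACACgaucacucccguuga

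miR-425-3p: aUCGGGAAugucguguccgcc

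miR-489-3p: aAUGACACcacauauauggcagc

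The pair did not share a seed with each other on any arm. Among 1738 mature sequences in the RefSeq table, only miR-489-3p, made from Mir489 on chromosome 6, carried the seed of a member, that of miR-425-5p. Mir489 had 0 counts in both replicates, which allows up to 3 counts, or 0.879 CPM (replicate 2) and 1.29 CPM (replicate 1). CPM are counts scaled to a total of 1000000 over the microRNA genes of a library. No other gene in the RefSeq table had the seed of miR-191-5p, miR-191-3p or miR-425-3p.

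The hairpins are printed with the mature arms of the RefSeq annotation in capitals, which do not show where reads fell. The deposited counts are per gene, so reads of the 5p arm and the 3p arm were summed and could not be separated.

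Mir191: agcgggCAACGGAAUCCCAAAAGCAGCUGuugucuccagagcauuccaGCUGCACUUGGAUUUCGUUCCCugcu

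Mir425: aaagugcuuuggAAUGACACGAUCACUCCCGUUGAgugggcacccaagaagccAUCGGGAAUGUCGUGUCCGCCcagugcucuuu

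The Mir191 hairpin is 74 bases long with 19 bases between the arms, and that of Mir425 is 85 bases long with 18 bases between them. The predicted minimum free energies were -35.0 kcal/mol for Mir191 and -31.7 kcal/mol for Mir425. In the predicted folds, 17 base pairs joined the arms of Mir191 and 14 joined the arms of Mir425. The GC content was alike, at 54.1% in each hairpin, but the longest run of bases that the hairpins share is 5. Against each of the other 2201 listed hairpins on its own strand, the longest shared run was 11 bases for Mir191 and 13 bases for Mir425. Matches elsewhere in the genome were not tested.

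Mir191 (ENSMUSG00000105497.1) lies at chr9:108568319-108568392 of mm10 on the plus strand, and Mir425 (ENSMUSG00000065579.1) at chr9:108568777-108568861 on the same strand, with 384 bases between them. In GENCODE M21 neither lies inside Dalrd3, which starts at position 108569886, after a gap of 1024 bases from Mir425. Both instead lie in the single exon of the long transcript of the noncoding gene 4833445I07Rik, at 108567533 to 108569174. A shorter transcript of 4833445I07Rik has Mir191 in its intron and ends before Mir425. RefSeq gives Dalrd3 a longer span, from 108567484 to 108572773, and both members fall inside it. Whether the host is a coding or a noncoding gene thus depends on the annotation used.

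Another microRNA gene of the annotation, Gm24083, covers all of Mir191 on the opposite strand, at 108568295 to 108568414. No listed microRNA gene lies opposite Mir425. Within 1 Mb of the pair the tables list 6 other microRNA genes, and 5 of them (Mir7088, Gm47303, Gm26298, Gm23156 and Mir711) had 0 counts in every column of both replicates. The sixth is Gm24083, with 1 read on its own strand in replicate 2 and 0 in replicate 1.

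**Figure D1:**
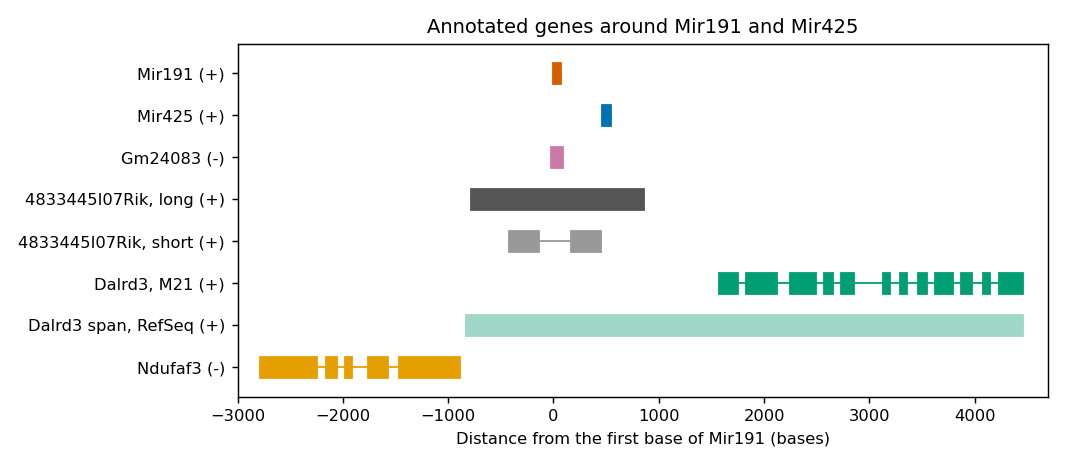
Genes around the pair, as distance in bases from the first base of Mir191, with exons as boxes, introns as lines and the strand in parentheses. The RefSeq span of Dalrd3 is drawn as a single box over the whole gene and does not show its exons. Mir191 and Mir425 both fall within the long 4833445I07Rik exon and the RefSeq span of Dalrd3, while Dalrd3 of GENCODE M21 begins 1024 bases after Mir425.

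Depth was 3414105 counts on microRNA genes in replicate 2 and 2322520 in replicate 1, out of 10003856 and 6441333 reads. Reads that mapped to several places made up 46.0% of replicate 2 and 42.6% of replicate 1, and were in no gene's count. MicroRNA markers of several cell types were looked up. Their detection does not check the labelled tissue, because nearly all markers of every list were detected. Of 12 neuronal markers 10 were detected, meaning 2 CPM or more in both replicates, with sums of 47686 CPM (replicate 2) and 33052 CPM (replicate 1). Mir128-1 alone gave 16906 CPM (replicate 2) and 4518 CPM (replicate 1) of these sums. The detected fraction was 3 of 3 for oligodendrocytes, 1 of 1 for endothelium, 2 of 2 for mural cells, 3 of 3 for erythrocytes and 4 of 5 for leukocytes and microglia. The 12 neuronal markers include the 3 Mir124a loci, which together had 16 counts in replicate 2 and 7 in replicate 1. Reads that fit several loci were in no gene's count, so the Mir124a and Mir9 loci may be undercounted. Their low counts are thus no measure of the mature products. Mir9-2 was detected at only 2.93 CPM in replicate 2 and 3.01 CPM in replicate 1. Mir124a-1 was among the detected markers at 3.22 and 2.58 CPM, and Mir124a-2 and Mir124a-3 were the undetected ones.

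By counts that leave out multimapping reads, Mir191 was among the most abundant microRNA genes, and Mir425 was present at a level 19.7-fold lower. The reads left out were 46.0% of replicate 2 and 42.6% of replicate 1. Genes with several copies may thus stand too low in the ranks and shares given here. Mir191 had 49451 counts in replicate 2 and 26673 in replicate 1. These equal 14484 CPM (Wilson 95% interval 14358 to 14612) and 11485 CPM (11348 to 11622). Both libraries placed it at rank 13 of the 2202 genes.

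Mir425 had 2347 counts in replicate 2 and 1452 in replicate 1. These equal 687 CPM (Wilson 95% interval 660 to 716) and 625 CPM (594 to 658). Its rank was 112 in replicate 2 and 110 in replicate 1, so it stood at nearly the same place in both libraries. Intervals and the floor of 3 counts describe counting error alone, because PCR copies of a molecule could not be recognised.

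The means were 12984 ± 2121 CPM for Mir191 and 656 ± 44.0 CPM for Mir425 (SD, n = 2). Of the 401 detected genes, 388 had a lower mean than Mir191 and 288 a lower mean than Mir425. Mir191 lay 149-fold and Mir425 7.54-fold above the median detected gene. Together the pair held 1.36% ± 0.217 (SD, n = 2) of microRNA-gene counts, with 1.52% in replicate 2 and 1.21% in replicate 1. Mir191 supplied 95.5% of the pair's counts in replicate 2 and 94.8% in replicate 1.

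By the summed SDs of the means, Mir191 could not be set apart from its near neighbours in the order of the levels. Mir151 and Mir126a just above it, and Mir132, Mir128-1 and Mir328 just below it, had means that differed from that of Mir191 by less than the summed SDs. Mir23b, at rank 10 with 22793 ± 2622 CPM (SD, n = 2), was higher than Mir191 by more than that. Compared within each library, Mir191 was above Mir132 (10719 CPM in replicate 2 and 11112 CPM in replicate 1) in both. It was also above Mir328 (10891 and 10450 CPM) in both. Its order against Mir151, Mir126a and Mir128-1 differed between the replicates. In replicate 2 Mir191 exceeded Mir126a, an endothelial microRNA, at 14484 against 12474 CPM, and in replicate 1 it was lower, at 11485 against 14889 CPM.

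Mir425 was likewise within the summed SDs of the 3 genes above it (Mir467d, Mir204 and Mirlet7c-1) and the 3 below it (Mir3102, Mir181a-1 and Mir1843a). Compared within each library, Mir425 was above Mir181a-1 and Mir1843a in both, the latter by 625 against 624 CPM in replicate 1. Its order against Mir467d, Mir204, Mirlet7c-1 and Mir3102 differed between the replicates. Over the 2 libraries, the detected genes closest to Mir425 by Euclidean distance of log2(CPM + 1) were Mir540 (0.11), Mir181a-1 (0.12), Mir204 (0.13), Mirlet7c-1 (0.13) and Mir431 (0.14). The closest to Mir191 were Mir151 (0.39), Mir126a (0.43), Mir328 (0.43), Mir29a (0.44) and Mir132 (0.44). With 2 libraries this likeness describes levels and says nothing of a shared pattern over conditions.

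**Figure D2:**
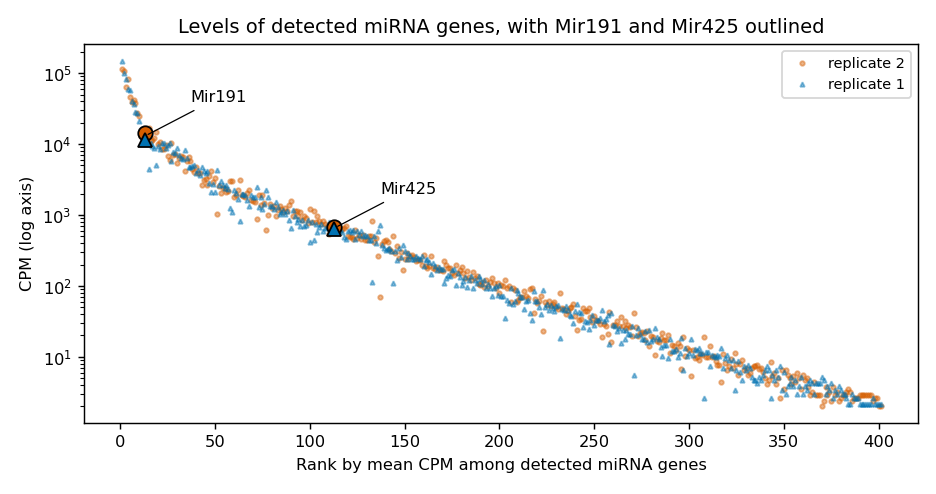
CPM (log axis) of the 401 detected microRNA genes by rank of the mean, in replicate 2 (orange circles) and replicate 1 (blue triangles). Mir191 sits at rank 13 with 14484 and 11485 CPM, and Mir425 at rank 113 with 687 and 625 CPM.

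Although the genes lie 384 bases apart on the same strand, Mir191 exceeded Mir425 in both libraries. The ratio was 21.1 in replicate 2 (exact Clopper-Pearson 95% interval 20.2 to 22.0) and 18.4 in replicate 1 (17.4 to 19.4). The mean log2 ratio was 4.30 ± 0.14 (SD, n = 2), which is larger than 2 SD of the replicates and on the same side of 0 in both. The smallest two-sided sign-flip p that 2 libraries allow is 0.5, so no p is given. The intervals of the replicates do not overlap, and the ratio was 1.15-fold higher in replicate 2. Counts of different hairpins also depend on ligation and amplification of each sequence, whose part in the ratio was not tested.

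Unequal neighbours were common elsewhere. Detected microRNA genes next to each other on a strand, with starts within 10 kb, formed 91 pairs, some of which share a gene in longer clusters. Of the 90 other pairs 30 had a wider ratio than Mir191 over Mir425, and their median ratio, higher over lower gene, was 7.78-fold, against 19.7-fold for Mir191 over Mir425. Genes with a numbered copy suffix may be undercounted, since reads that map to several places are in no gene's count. Among the 71 other pairs without such a gene, a selection made after seeing the data, 20 had a wider ratio and the median was 7.69-fold. The pairs nearest in ratio were Mir23b over Mir27b at 19.8-fold, Mir30e over Mir30c-1 at 20.05-fold and Mir200c over Mir141 at 18.7-fold. Mir29c over Mir29b-2, at 21.9-fold, and Mir382 over Mir134, at 17.6-fold, came next.

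The ratio of Mir191 over Mir425 shifted less between the libraries than that of most pairs. It moved by 0.20 on the log2 scale, against a median of 0.45 over the other pairs, and 16 of the 90 moved less. Of the 5 pairs nearest in ratio, Mir200c over Mir141, Mir29c over Mir29b-2 and Mir382 over Mir134 shifted the other way, by -0.81, -0.99 and -0.26. No test was made of these differences between pairs. The pairs were not matched for depth, and some hold a gene close to the threshold of 2 CPM. An example is Mir141, at 2.93 and 3.44 CPM (replicate 2, then replicate 1), whereas Mir425 has at least 1452 counts per library. Shifts of genes with few reads carry more counting error. Whether the smaller shift of Mir191 over Mir425 goes beyond this difference in depth was not tested.

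**Figure D3:**
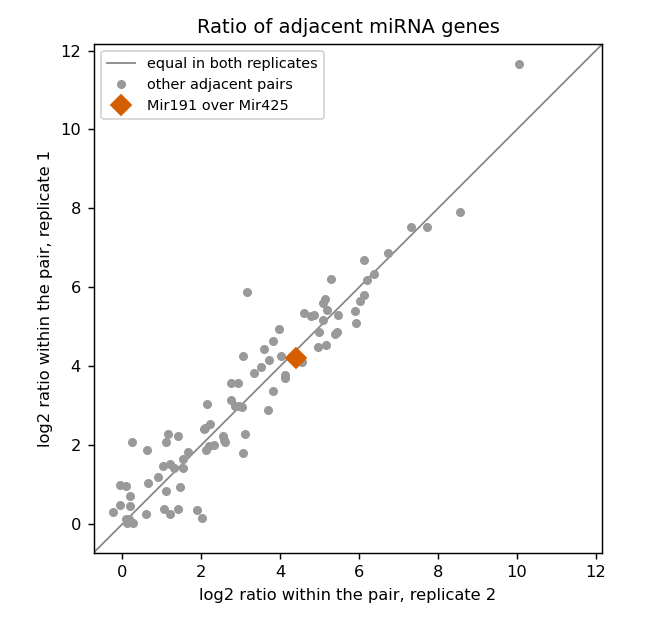
Log2 ratio within each pair of adjacent detected microRNA genes, the gene with the higher mean over the other, with replicate 2 along the x axis, replicate 1 along the y axis and a line where they are equal. Mir191 over Mir425 (orange diamond) lies close to the line at 4.40 and 4.20.

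Both members were higher in replicate 2 than in replicate 1, by small amounts. With library sizes scaled by the trimmed mean of M-values (TMM), Mir191 was 1.24-fold higher (adjusted exact binomial p = 9.36e-178) and Mir425 1.08-fold higher (adjusted exact binomial p = 0.0408). This test compares these 2 libraries beyond counting error and does not compare conditions. Among the 401 detected genes 204 differed (50.9%) and 113 (28.2%) were higher in replicate 2, so a call by this test was common. The difference was smaller than that of Mir191 in 47.1% of detected genes and smaller than that of Mir425 in 19.2%. With DESeq2 size factors the call for Mir425 was lost, at an adjusted exact binomial p of 0.171, and it was lost at 0.0671 when every gene with a count was tested.

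Mir191 is also abundant in blood cells. Neither the erythrocyte markers nor the leukocyte and microglia markers, a list not limited to blood, all moved in the same direction between the replicates. The 3 erythrocyte markers together had 1149 CPM in replicate 2 against 1922 CPM in replicate 1, a sum made up mostly of Mir451a. Mir451a was lower in replicate 2, at 1007 and 1807 CPM (adjusted exact binomial p = 1.04e-150). Mir144 was higher, at 121 and 94.7 CPM (adjusted exact binomial p = 0.0140), and Mir486 had 21.4 and 20.7 CPM (adjusted exact binomial p = 1). The 5 leukocyte and microglia markers together had 1598 CPM in replicate 2 against 1260 CPM in replicate 1, with Mir150 the most abundant. Mir150, at 966 and 569 CPM (adjusted exact binomial p = 2.30e-58), and Mir142, at 93.1 and 63.3 CPM (adjusted exact binomial p = 0.000468), were higher in replicate 2. Mir146 was lower, at 497 and 585 CPM (adjusted exact binomial p = 3.07e-06), and Mir155 had 33.4 and 43.1 CPM (adjusted exact binomial p = 0.0946). Mir223, a myeloid microRNA, was not detected by the threshold, with 27 counts in replicate 2 and 1 in replicate 1. Mir191 stood 12.6-fold (replicate 2) and 5.97-fold (replicate 1) above the summed erythrocyte markers. Against the summed leukocyte and microglia markers it stood 9.07-fold (replicate 2) and 9.11-fold (replicate 1) higher. Reads that map to several places are in no gene's count, so either sum may be too low. These folds compare levels and do not measure the share of Mir191 that came from blood. The part of blood cells, or of any cell type, in the levels of the pair was not tested, and fewer cells of a type cannot be told apart here from less RNA per cell.

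The pair was set beside other microRNA genes that are often used as normalisers, a list of 19 names with Mir191 and Mir425 included. Mir191 was the highest of the list, above all 16 others that were detected, and 6 of these 16 were above Mir425. Mir23a, a member of the miR-23/27/24 clusters, came next at 9587 ± 1570 CPM (SD, n = 2), followed by Mir361 at 6077 ± 512 CPM and Mir320 at 3406 ± 1041 CPM. Mir93, at 1286 ± 93.4 CPM, Mir423, at 1148 ± 151 CPM, and Mir484, at 1138 ± 9.68 CPM, lay between Mir320 and Mir425.

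Of the 16 others 10 differed by the exact binomial test, 7 of them higher and 3 lower in replicate 2, beside 50.9% of all detected genes. Their median difference was 1.30-fold, against 1.26-fold over all detected genes. The difference was smaller than that of Mir191 in 7 of the 16 and smaller than that of Mir425 in 4. Mir484 was 1.03-fold lower in replicate 2 (adjusted exact binomial p = 0.376) and Mir16-1 1.01-fold higher (adjusted exact binomial p = 0.875). Mir26a-1 was 7.01-fold higher in replicate 2, on 141 counts against 13 counts in replicate 1.

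The 8 names with a copy suffix (Mir103, Mir16, Mir24 and Mir26a loci) had means between 3.31 and 387 CPM, all below Mir425. Reads that fit several copies were set aside as multimapping, so these genes may be undercounted. Mir103-1 was not detected, with 2 counts in replicate 2 and 14 in replicate 1. Mir191 and Mir425 each have 1 listed locus.

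**Figure D4:**
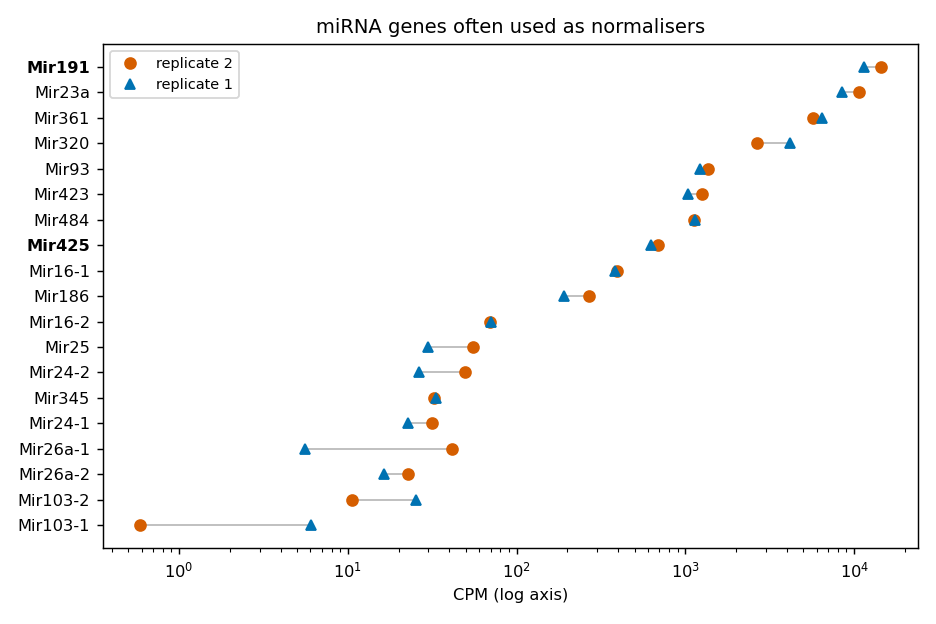
CPM (log axis) of microRNA genes often used as normalisers, in replicate 2 (orange circles) and replicate 1 (blue triangles), ordered by mean. Mir191 is at the top with a mean of 12984 CPM and Mir425 stands eighth with 656 CPM, while Mir26a-1 and Mir103-1 show the widest gaps between replicates.

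The count of Mir191 rests entirely on the column that uses strand. On the strand of the gene it had 49451 counts in replicate 2 and 26673 in replicate 1, and in the column for both strands together it had 0 counts in both. Gm24083, opposite to it, also had 0 counts in that column. The opposite-strand column gave Gm24083 exactly the reads of Mir191, 49451 and 26673, and gave Mir191 1 and 0. The hairpin of Mir191 is contained as its reverse complement in Gm24083, over all 74 bases.

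Mir425 was untouched by the choice of column, with 2347 and 1452 counts in the same-strand column and the same counts in the unstranded column. Its CPM in the unstranded column was 743 in replicate 2 and 675 in replicate 1, because the total was smaller. With the unstranded column no ratio of Mir191 over Mir425 could be formed, and the order of the pair was turned round, with Mir191 listed at 0.

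The reads missing from Mir191 matched a class that the unstranded column holds apart. That column had 253343 ambiguous reads in replicate 2 and 170529 in replicate 1, while the same-strand column had 0. The reads of Mir191 equal 19.5% of the ambiguous reads of replicate 2 and 15.6% of those of replicate 1. Over all 401 detected genes, 27 (6.73%) lost more than 99% of their reads in the unstranded column. All 27 have a listed microRNA gene opposite to them, and no other detected gene does. The same-strand counts of these 27 genes sum to 253339 in replicate 2 and 170525 in replicate 1. Mir191 was the most abundant of the 27 apart from Mirlet7e and Mir126a. Mir425 was among the 355 detected genes whose counts were identical in both columns.

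**Figure D5:**
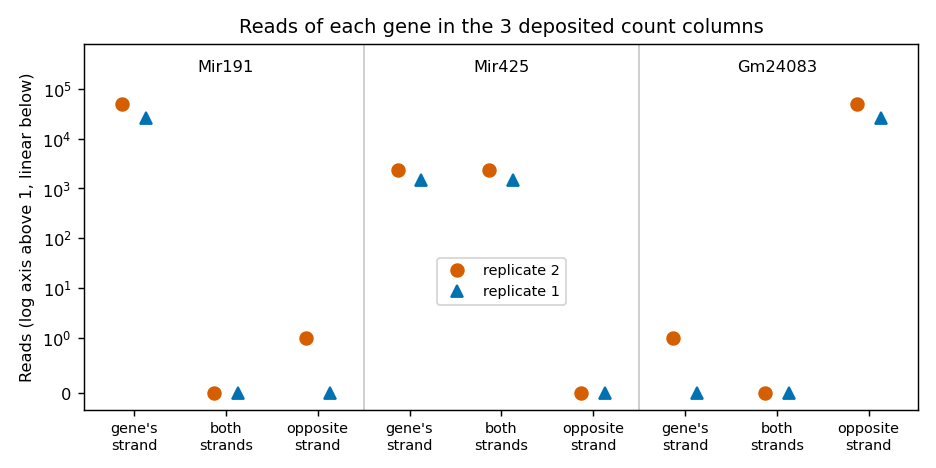
Reads of Mir191, Mir425 and the opposite-strand gene Gm24083 in the deposited columns for the gene's strand, both strands together and the opposite strand, in replicate 2 (orange circles) and replicate 1 (blue triangles), on an axis that is logarithmic above 1. Mir191 has 49451 and 26673 reads on its strand and 0 in the unstranded column, while Mir425 has 2347 and 1452 in both.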

How the data were processed

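Small RNA libraries with fragments under 30 nt, per the labels, were deposited as 1 table of counts per library, unnormalised reads per microRNA gene made by the authors for both strands, the gene's strand and the opposite strand. The build (mm10) and annotation (M21) are per the labels and the deposited descriptions; the aligner, counter and settings are not given in the sources used here. The 4 rows that name no gene were left out of library sizes. As shares of all reads in the same-strand column, unmapped reads were 15.1% in replicate 2 and 16.2% in replicate 1, multimapping reads 46.0% and 42.6%, reads outside any feature 4.70% and 5.16%, and ambiguous reads 0% in both.

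All 2202 identifiers matched GENCODE M21. CPM were scaled to 1000000 over these genes. Replicates were compared gene by gene with a two-sided exact binomial test (SciPy 1.17.1) on the 401 detected genes, using TMM effective library sizes from edgeR 4.0.16 (factors 1.01 in replicate 2 and 0.991 in replicate 1) and Benjamini-Hochberg adjustment at 0.05. Log2 differences used 0.5 added to each count. DESeq2 1.42.0 size factors were an alternative. Hairpins were folded with RNAfold 2.7.2.

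Genes named are the pair, microRNA genes overlapping or within 1 Mb of it, the 5 detected genes closest in level to each member, its neighbours in rank, the 5 adjacent pairs closest in ratio, fixed marker and normaliser lists, and genes sharing a seed. Rank neighbours and the other genes that lose their reads in the unstranded column were named after their values were seen. The members and lists were chosen with earlier results of these data known.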

Additional observations from a re-analysis of the deposited data

How the results depend on the processing

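The mean level of Mir191 (12984 CPM) was 0 CPM with counts on both strands together, 22777 CPM with the 5 most abundant genes left out of the total and 4542 when scaled to 1000000 of all reads. Under the same changes the mean of Mir425 (656 CPM) was 709 CPM, 1154 CPM and 230.0. The last pair of settings rescales every gene of a library by 1 factor and leaves the ratio within the pair as it was. Leaving out a replicate gave 11485 to 14484 CPM for Mir191, 625 to 687 CPM for Mir425 and a log2 ratio of 4.20 to 4.40. With 0.5 added to each count the log2 ratio stayed at 4.30. The unstranded column gave no ratio and no difference between replicates for Mir191, which had 0 counts there.

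The difference of Mir191 between replicates was 0.28 to 0.33 (log2) over the scalings tried and kept its call with counting error alone. The difference of Mir425 lost its call with DESeq2 size factors (0.080) and with all counted genes tested (0.11). Across alternatives of the exact binomial test its adjusted p lay between 0.00954 and 0.171, and 184 to 210 genes differed. The numbers tested were unlike, with 184 of 376 called for both strands together and 210 of 715 for all counted genes. An edgeR exact test with a common dispersion was also run, with differences of 0.31 for Mir191 and 0.11 for Mir425, neither called, and 3 genes called (25 at an unadjusted p under 0.05). Its dispersion was estimated from the same 2 libraries that it compares, 1 on each side, so it is void as a test and says nothing about the stability of the calls. Without pairs holding a gene with a copy suffix, chosen after seeing the data, the median ratio of the other adjacent pairs was 7.69-fold in place of 7.78-fold. No paired analysis was possible because there is 1 group. Mir425 has 1452 counts or more per library, so depth limits it little, but 2 libraries limit every SD.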
